A study of Mus musculus with 2 samples.

Results

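The genes described here make, store and release the cytokine TGF-beta: the ligand gene Tgfb1, the convertase gene Furin, the latent-form binding protein genes Ltbp1, Ltbp3 and Ltbp4, and the integrin chain genes Itgav, Itgb1, Itgb5 and Itgb8. They were taken by gene symbol, 9 of the 22597 genes measured. Lung cells of mice that had received Tgfbr2 fl/fl donor bone marrow (control pool, hashtag B0301) or LyzM-Cre Tgfbr2 fl/fl donor bone marrow (Tgfbr2-KO pool, hashtag B0303) were profiled together in 1 droplet-based 3′ single-cell RNA library. Tgfbr2 encodes a receptor chain that TGF-beta binds, and Cre driven from the lysozyme locus cuts floxed DNA in myeloid cells. The hosts of both pools were IM-DTR mice that were CD45.1+CD45.2+ and had been irradiated, a line in which diphtheria toxin removes interstitial macrophages, and all received 50 ng of the toxin 10 days before sacrifice. Donor-derived CD45.1-CD45.2+ cells were sorted as Ly6G-SiglecF-CD11b+SSClo CD64+, which selects monocytes and macrophages and leaves out neutrophils and alveolar macrophages. No age of the mice is stated in the labels.

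Each pool mixed cells of 5 mice under a single hashtag, so mice cannot be separated and a genotype is 1 pool without replicates. No test was made. Intervals are exact 95% intervals that cover counting error only, and differences between mice, between sorts and between genotypes cannot be told apart. After filtering, 1896 control and 2674 Tgfbr2-KO cells remained, with a median of 7785 and 10278 UMIs per cell. A UMI (unique molecular identifier) marks 1 captured transcript, and levels are UMIs per 1000000 gene UMIs of a pool or cell state (UPM). Transcripts are tagged at the 3′ end, so UPM values carry no length term. The C1q genes that mark macrophages were abundant in both pools (C1qa 4629 and 3978 UPM), while 6 alveolar macrophage markers summed to 4.29 and 6.18 UPM. Over all cells 8 neutrophil markers summed to 55.6 and 140 UPM and 11 structural markers to 73.8 and 132 UPM, with none of either list at 0. In the CD206-low state, described below, these sums were 31.8 and 40.9 UPM and 48.0 and 45.9 UPM, and in the CD206+ state 75.8 and 66.8 UPM and 76.6 and 71.9 UPM. Their part in the pool differences was not tested. Tgfbr2 itself read 215 UPM in the control pool and 195 in the Tgfbr2-KO pool. Because 3′ tags can lie outside the deleted part, this value does not check the deletion. Lyz2, the locus that carries Cre, read 13282 and 5949 UPM.

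TGF-beta is made as a longer protein that furin, a protease of the Golgi, cuts into a propeptide and the mature cytokine. Both products stay bound, and the propeptide holds the cytokine inactive. LTBP proteins tie this latent complex to the extracellular matrix, whereas the membrane proteins encoded by Nrros and Lrrc32 hold it on the cell surface. Integrins that contain the alpha V chain, paired with a beta chain such as beta 1, beta 5 or beta 8, bind the propeptide and can free the cytokine.

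The results turn on the integrin chains, so the promoter windows of the 2 chains with the lowest pool ratios, Itgav and Itgb5, are shown beside that of Itgb1, whose level differed little. Each window runs from 250 bases before to 50 bases after the annotated start, 5′ to 3′ on the gene's strand, from RefSeq on GRCm38.p6, the build of the files. All 9 genes had an entry. The windows lie on the plus strand at chr2:83724147-83724446 (Itgav), chr16:33829415-33829714 (Itgb5) and chr8:128685404-128685703 (Itgb1). The Itgav entry has its start at 83724397, which is 2094 bases inside the RefSeq gene span given with its values, while the other two start at the first base of theirs. Capitals mark matches on either strand to CAGAC, a core that SMAD proteins bind, to TGANTCA, an AP-1 site, or to GGGCGG, a GC box.
Itgav: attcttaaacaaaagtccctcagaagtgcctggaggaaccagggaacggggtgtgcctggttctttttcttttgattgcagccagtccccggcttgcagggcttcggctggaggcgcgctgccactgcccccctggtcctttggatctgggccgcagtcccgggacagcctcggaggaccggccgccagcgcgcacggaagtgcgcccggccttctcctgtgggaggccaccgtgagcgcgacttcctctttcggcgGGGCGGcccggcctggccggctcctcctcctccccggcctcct
Itgb5: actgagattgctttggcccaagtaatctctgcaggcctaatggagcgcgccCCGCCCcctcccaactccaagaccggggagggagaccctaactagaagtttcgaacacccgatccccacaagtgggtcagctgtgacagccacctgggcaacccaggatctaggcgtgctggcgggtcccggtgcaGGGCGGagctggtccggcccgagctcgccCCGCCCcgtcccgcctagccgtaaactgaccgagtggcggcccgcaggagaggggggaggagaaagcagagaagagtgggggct
Itgb1: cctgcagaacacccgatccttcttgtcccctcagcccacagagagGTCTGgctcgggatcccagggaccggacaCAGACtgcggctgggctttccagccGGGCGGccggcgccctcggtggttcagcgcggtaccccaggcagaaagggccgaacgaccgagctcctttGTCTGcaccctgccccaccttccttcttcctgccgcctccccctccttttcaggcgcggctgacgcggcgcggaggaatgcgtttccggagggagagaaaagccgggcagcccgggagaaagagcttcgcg
The Itgav window held 0 matches to CAGAC and 1 GC box, and the Itgb5 window held 0 and 3. The Itgb1 window held 3 matches to CAGAC and 1 GC box. None of these 3 windows held TGANTCA. Of the windows not shown, that of Tgfb1 held 0 matches to CAGAC, those of Furin held 2 and 1, and that of Ltbp3 held 2 and also 1 match to TGANTCA. Over all cells Tgfb1 was 1.17-fold, Furin 1.63-fold and Ltbp3 1.53-fold lower in the Tgfbr2-KO pool. Any tie between matches and pool ratios was not tested. Of 32851 windows of this length, 49.6% held CAGAC, 7.81% held TGANTCA and 35.7% held GGGCGG. These matches describe the letters of a 300-base window and say nothing of binding.

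Over all cells, the alpha V chain and its beta 5 partner were lower in the Tgfbr2-KO pool, and Furin less so, while Tgfb1 and Itgb1 differed little. At least 100 UMIs over both pools were found for 6 of the 9 genes (Tgfb1, Furin, Ltbp3, Itgav, Itgb1 and Itgb5), and Ltbp1, Ltbp4 and Itgb8 had fewer. Of those 6, 4 were at least 1.5-fold lower in the Tgfbr2-KO pool (Itgav, Itgb5, Furin and Ltbp3), where 7.53% of all 10237 genes with that many UMIs were. None was at least 1.5-fold higher, where 11.9% of all genes were. The median log2 ratio of the 6 genes was -0.66, against 0.09 for all genes. Ltbp3 and Furin lay near 1.5-fold, and their place in this count depended on which cells were taken, as given below. The plot of levels and positive cells shows the 9 genes over all cells of each pool.

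**Figure D1:**
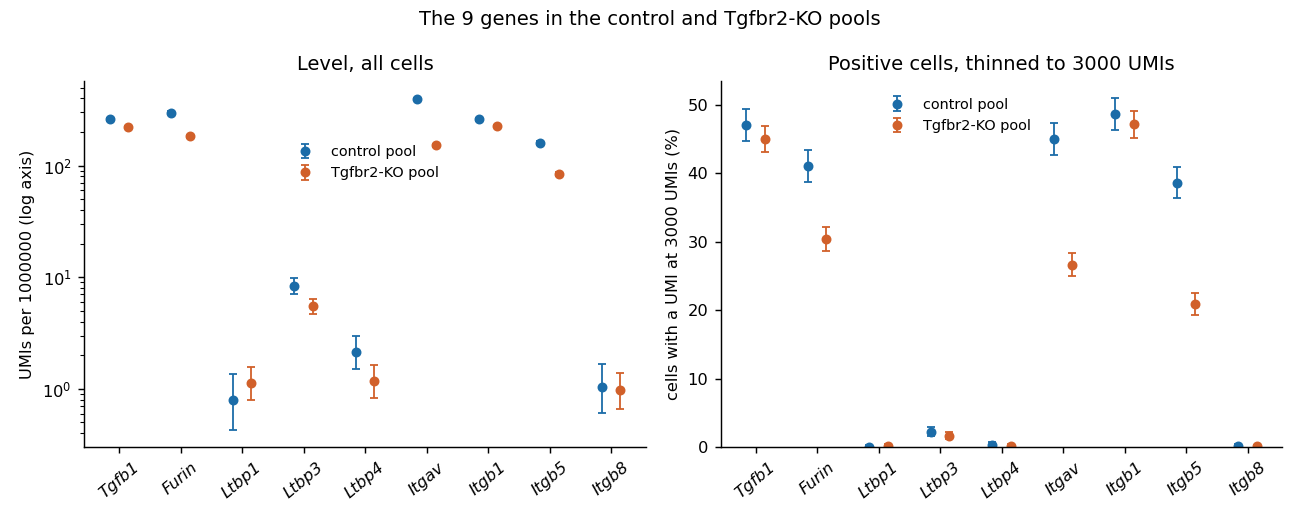
Left, the level of each gene over all cells as UMIs per 1000000 gene UMIs on a log axis; right, the share of cells with at least 1 UMI after every cell was thinned to 3000 UMIs. Points are the control pool (blue) and the Tgfbr2-KO pool (orange) and bars are exact 95% intervals for counting error; Itgav read 396 and 152 UPM and was found in 45.0% and 26.6% of cells, while Ltbp1, Ltbp4 and Itgb8 stayed near or below 2 UPM.

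Tgfb1 (chr7:25687002-25705077), the ligand, read 260.0 UPM (252 to 268) in the control pool and 222 (217 to 228) in the Tgfbr2-KO pool. That is 1.17-fold lower (1.13 to 1.22), and 21.0% of all counted genes had a lower ratio. In cells thinned to 3000 UMIs, 47.0% of control and 45.0% of Tgfbr2-KO cells held a Tgfb1 UMI. The ligand was found in every gated state of both pools. Levels were highest in patrolling monocytes (582 UPM, 380 to 853, and 469.5, 352 to 614) and classical monocytes (497.5, 421 to 584, and 290.1, 270 to 311). Among control macrophages, the Fn1-high state read 367 UPM (342 to 394), above the CD206-low (234, 224 to 245) and CD206+ (238, 222 to 254) states, whose intervals overlap. In the Tgfbr2-KO pool these 3 states could not be told apart within counting error, at 223 UPM (196 to 253), 223 (213 to 233) and 225 (212 to 238). The Fn1-high state thus read 1.65-fold lower (1.43 to 1.91) in the Tgfbr2-KO pool, but it held only 55 cells there against 157 in the control pool. Classical monocytes, 33 and 245 cells, read 1.72-fold lower (1.43 to 2.05). In the CD206-low and CD206+ states the pools differed by 1.05-fold (0.986 to 1.12) and 1.06-fold (0.969 to 1.16).

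These states were gated on marker UMIs in cells thinned to 3000 UMIs, and none of the 9 genes was a marker. C1q-positive cells were CD206+ with at least 4 UMIs of Mrc1 (which encodes CD206), Folr2, Cd163, Lyve1, Cd209f and Cd209g, and otherwise CD206-low, after Fn1-high, interferon-activated and proliferating cells had been set aside. The CD206-low state held 1071 control and 888 Tgfbr2-KO cells and the CD206+ state 416 and 574. Interferon-activated cells were 8 control and 532 Tgfbr2-KO cells, so that state is thin in the control pool. The other states held 39 and 120 proliferating cells, 60 and 139 cells with low C1q and no other gate, 7 and 11 patrolling monocytes, and 11 and 11 dendritic cells. A further 14 and 16 cells carried markers of other lineages, and 80 and 83 cells were too shallow to gate.

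**Figure D2:**
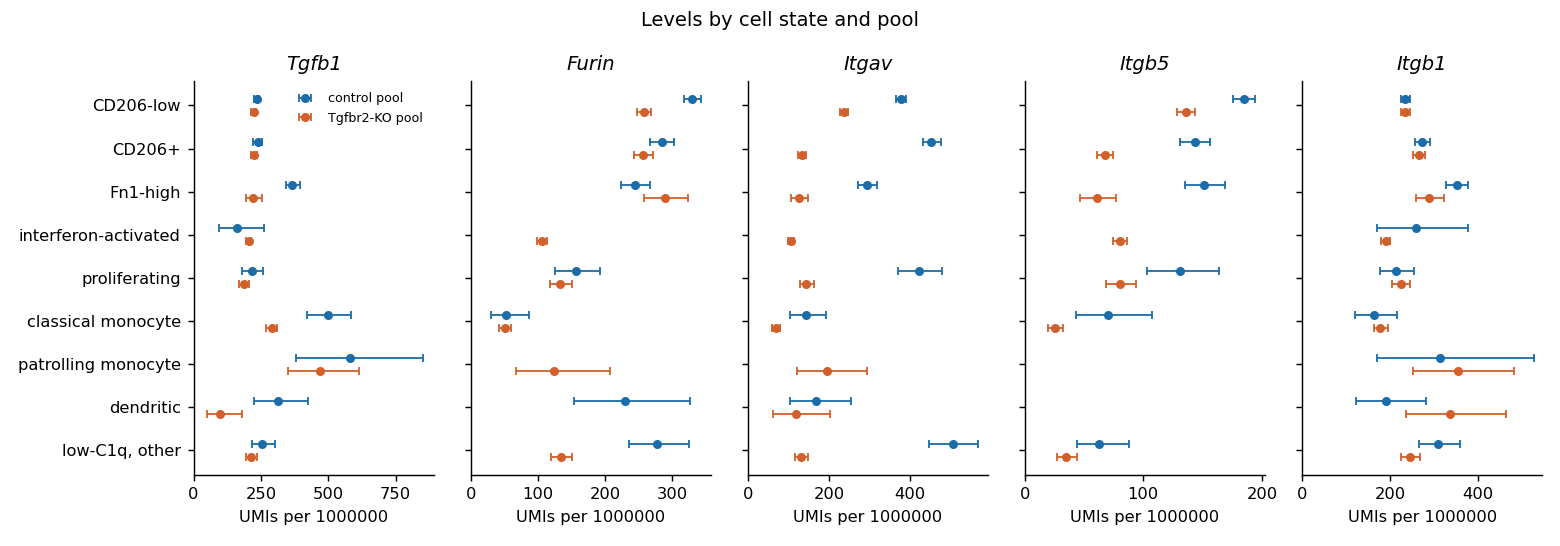
Levels of the 5 most abundant of the 9 genes as UMIs per 1000000 gene UMIs (horizontal axes, each from 0) in each gated cell state (vertical), in the control pool (blue) and the Tgfbr2-KO pool (orange). Bars are exact 95% intervals and values with fewer than 10 UMIs are not drawn; Itgav in the CD206+ state read 452 and 134 UPM, while Tgfb1 there read 238 and 225.

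Furin (chr7:80389194-80405441), the protease that separates the propeptide from the cytokine, read 298 UPM (289 to 306) in the control pool and 183 (178 to 188) in the Tgfbr2-KO pool. That is 1.63-fold lower (1.57 to 1.69). The difference was smaller in each of the larger macrophage states, with 330.0 and 258 UPM in CD206-low cells (1.28-fold lower, 1.21 to 1.35) and 285 and 257 UPM in CD206+ cells (1.11-fold, 1.02 to 1.20). In Fn1-high cells Furin read 245 and 289 UPM, 1.18-fold higher (1.02 to 1.36). Low levels were found in states that the Tgfbr2-KO pool held more of. Interferon-activated Tgfbr2-KO cells read 106 UPM (98.9 to 113), and classical monocytes 53.4 (30.5 to 86.8) and 50.6 UPM (42.5 to 59.7). Without interferon-activated cells the difference was 1.42-fold (1.36 to 1.48). Among C1q-positive macrophages outside the proliferating state with 0 UMIs of the 5 interferon-activated markers, 1525 control and 1107 Tgfbr2-KO cells, Furin read 304 and 297 UPM. With 1 such UMI, 99 and 211 cells, it read 363 and 212 UPM, 0.585 times the control level (0.507 to 0.676). With 2 to 4, 20 and 199 cells, it read 148 and 166 UPM, 1.12 times (0.776 to 1.69). The part of the cell mix in the Furin difference was not tested. The Furin difference was also uneven over depth, at a log2 ratio of -0.68 in cells of 1000 to under 3000 UMIs, 0.07 from 3000 to under 6000 UMIs, -0.38 from 6000 to under 10000, -0.69 from 10000 to under 15000 and -0.94 from 15000 UMIs, and the part of depth in it was not tested.

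The latent-form binding proteins were scarce in these cells. Ltbp3 (chr19:5740900-5758536), which is needed for secretion of latent TGF-beta in several cell types, read 8.41 UPM (7.06 to 9.94) and 5.50 UPM (4.70 to 6.39) from 137 and 169 UMIs. That is 1.53-fold lower (1.21 to 1.93). It was found in 2.20% and 1.62% of thinned cells. Droplets without cells held 9.65 UPM of Ltbp3 (6.36 to 14.0), and free RNA made up at most 1.06% and 0.916% of the UMIs of CD206-low and CD206+ cells, which would bring at most 0.102 and 0.0884 UPM of Ltbp3. In classical monocytes Ltbp3 had 0 UMIs in both pools, where 3 counts would be 10.0 and 1.08 UPM.

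Ltbp1 (chr17:75005480-75392512) had 13 control and 35 Tgfbr2-KO UMIs in 4 and 17 cells, and Ltbp4 (chr7:27305140-27339720) had 35 and 36 UMIs in 16 and 18 cells. Most of the control UMIs came from the few cells with markers of other lineages, epithelial, stromal, endothelial, lymphoid or alveolar. These 14 control cells held 11 of the 13 Ltbp1 UMIs and 22 of the 35 Ltbp4 UMIs, and the 16 such Tgfbr2-KO cells held 5 and 8. In the clustering of all cells described below, cluster 12 was led by Sftpc, Ccl21a and Ank3, with 11 structural markers above their level in other cells. Its 6 control cells held 12 Ltbp1 and 24 Ltbp4 UMIs, and its 12 Tgfbr2-KO cells held 25 and 22, which is most of the UMIs of both genes in both pools. In CD206+ cells Ltbp1 had 0 UMIs in both pools, and in CD206-low cells it had 2 UMIs in 2 control cells and 17 in 6 Tgfbr2-KO cells. As cluster 12 held 25 of the 35 Tgfbr2-KO UMIs, some of these 17 lay in cells of that cluster. Over all cells Ltbp4 read 2.15 and 1.17 UPM, 1.83-fold lower in the Tgfbr2-KO pool, whereas over the C1q-positive states it had 12 and 22 UMIs and read 0.834 and 0.945 UPM. Ltbp1 in CD206-low cells of the Tgfbr2-KO pool was 8.47 times the control level (2.01 to 75.6). Because these UMIs lay in few cells and partly in cluster 12, that ratio is not read as a difference between macrophages. For Ltbp4 no pool difference could be read within macrophages at this depth.

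Itgav (chr2:83722303-83806917), the alpha V chain that pairs with beta 1, beta 5 and beta 8, showed the lowest ratio of the 6 genes with at least 100 UMIs. It read 396 UPM (386 to 406) in the control pool and 152 (148.0 to 157) in the Tgfbr2-KO pool, a 2.60-fold lower level (2.50 to 2.70), and 0.908% of all counted genes had a lower ratio. At 3000 UMIs per cell, 45.0% (42.7 to 47.3) of control and 26.6% (24.9 to 28.4) of Tgfbr2-KO cells held an Itgav UMI. The UMIs were unevenly spread over cells: the 1% of cells with the most held 12.3% and 13.9% of all Itgav UMIs, against 5.30% and 5.04% for Itgb1. Intervals that treat UMIs as independent are therefore too narrow for Itgav, and also for Furin (12.4% and 14.1%).

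In CD206-low cells Itgav read 378 UPM (365 to 391) and 237 (227 to 248), 1.59-fold lower (1.51 to 1.68), and was the only one of the 6 counted genes at least 1.5-fold lower there, where 2.51% of 8095 genes were. In CD206+ cells it read 452 UPM (431 to 475) and 134 (124 to 144), 3.39-fold lower (3.10 to 3.70). There, 2 of 5 counted genes (Itgav and Itgb5) were at least 1.5-fold lower, against 4.69% of 6785 genes. No member was at least 1.5-fold higher in either state, where 6.04% and 6.09% of genes were. Only 0.192% of counted genes had a lower ratio than Itgav in CD206+ cells. The order of the states thus differed between pools, since Itgav was higher in CD206+ than in CD206-low cells of the control pool and lower in the Tgfbr2-KO pool, with intervals that do not overlap in either.

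Smaller states showed Itgav lower in the Tgfbr2-KO pool as well. Fn1-high cells read 295 and 126 UPM (2.34-fold lower, 1.94 to 2.83), proliferating cells 422 and 145 (2.92-fold, 2.45 to 3.47), and classical monocytes 144 and 69.0 (2.08-fold, 1.46 to 2.91). In 2 states that were thin in the control pool Itgav was higher by value in the Tgfbr2-KO pool. Patrolling monocytes read 89.6 UPM (24.4 to 229) from 4 UMIs and 195 (122 to 295) from 22 UMIs. Interferon-activated cells read 67.2 UPM from 7 UMIs in the 8 control cells and 107 (100.3 to 115) in the Tgfbr2-KO pool, 1.60 times the control level (0.772 to 3.98). The intervals of the pools overlap in both of these states. Cells too shallow to gate read high in both pools, 1751 and 576 UPM. The difference also moved with depth. In CD206-low cells the log2 ratio was -0.12 from 3000 to under 6000 UMIs per cell and -0.39 from 6000 to under 10000, against -1.11 and -1.23 from 10000 to under 15000 and from 15000 UMIs. In CD206+ cells it was -0.58, -1.45, -2.39 and -2.34 over the same ranges. The ratio was thus negative by value in every range, and its size was not the same. In the shallowest CD206-low range, at 0.921 times the control level (0.784 to 1.08), no difference could be read.

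Itgb5 (chr16:33829665-33949338), the beta 5 chain, read 160.2 UPM (154 to 166) among control cells and 84.2 (81.0 to 87.5) among Tgfbr2-KO cells, a 1.90-fold lower level (1.80 to 2.01). It was found in 38.5% and 20.8% of cells at 3000 UMIs. In CD206-low cells it read 185 and 136 UPM (1.36-fold lower, 1.26 to 1.47), and in CD206+ cells 143 and 67.3 (2.13-fold lower, 1.86 to 2.44). In both pools Itgb5 was higher in CD206-low than in CD206+ cells and lowest, among states with at least 30 cells per pool, in classical monocytes and in cells with low C1q and no other gate. Those states read 70.1 and 25.6 UPM, and 63.1 and 34.7 UPM. Itgb5 was the more even of the lower integrin chains over depth, with log2 ratios between -1.005 and -0.33 in the 5 depth ranges of all cells. In CD206-low cells from 10000 to under 15000 UMIs the pools could not be told apart, at 0.959 times the control level (0.821 to 1.12). The other CD206-low ranges from 3000 UMIs had log2 ratios between -0.53 and -0.44, and the CD206+ ranges between -1.35 and -0.85.

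Itgb1 (chr8:128685654-128733579), the beta 1 chain that pairs with many alpha chains, read 259.5 UPM (252 to 267) and 227 (221 to 232), 1.15-fold lower (1.10 to 1.19). In CD206-low cells it read 235 UPM in both pools, and in CD206+ cells 274 and 265. Cells with an Itgb1 UMI made up 48.6% and 47.1% at 3000 UMIs. Its highest level was 352 UPM in Fn1-high cells of the control pool and 354 UPM in the 11 patrolling monocytes of the Tgfbr2-KO pool. No state with at least 30 cells per pool differed by 1.5-fold.

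Itgb8 (chr12:119162803-119238276), whose product pairs with alpha V and activates latent TGF-beta on several immune cell types, was at the limit of detection. It had 17 control and 30 Tgfbr2-KO UMIs in 14 and 15 cells, and 1 Tgfbr2-KO cell held 10 of them. At 3000 UMIs, 3 of 1816 control cells (0.165%) and 3 of 2591 Tgfbr2-KO cells (0.116%) held a UMI. Classical monocytes held 0 Itgb8 UMIs in both pools. Over all cells a pool difference was not detectable at this depth, with 1.04 UPM (0.608 to 1.67) and 0.976 UPM (0.659 to 1.39). The UMIs lay in different states, with 17 of the 30 Tgfbr2-KO UMIs in 6 interferon-activated cells. CD206-low cells held 9 control UMIs in 8 cells and 1 Tgfbr2-KO UMI, 0.111 times the control level with a counting interval of 0.00253 to 0.799.

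Joint detection of Itgav with Itgb5 or with Itgb1 was lower in the Tgfbr2-KO pool. Counted singly at 3000 UMIs, both Itgav (45.0% of control and 26.6% of Tgfbr2-KO cells) and Itgb5 (38.5% and 20.8%) were found less often there. The share with Itgb1 differed little (48.6% and 47.1%). Itgav and Itgb5 were both found in 17.2% (15.5 to 19.1) of control and 7.60% (6.61 to 8.69) of Tgfbr2-KO cells at 3000 UMIs, and Itgav with Itgb1 in 22.7% and 13.4%. Itgav with Itgb8 was found in 1 control cell and in 0 of 2591 Tgfbr2-KO cells. With a floor of 3 counts this allows a share of up to 0.116% of cells with a UMI of both at this depth, which does not bound the share of cells that express both. In the control pool Itgb5 was found in 38.3% of cells with an Itgav UMI and 38.7% of those without, and in the Tgfbr2-KO pool in 28.6% and 18.0%. Cells of a pool share their library, so these shares describe the pools.

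Along the CD206 axis the pools diverged for the 2 lower integrin chains. C1q-positive cells outside the Fn1-high, interferon-activated and proliferating states were ordered by their summed UMIs of the 6 CD206+ markers. In the control pool Itgav read 368 UPM at a score of 0, 386 at 1, 382 at 2 to 3, 500 at 4 to 7 and 408 at 8 and above. In the Tgfbr2-KO pool it read 230.4, 261, 225, 178 and 103. The log2 ratio went from -0.67 at 0 to -1.98 at 8 and above. Itgb5 ratios went from -0.43 to -1.37, with the smallest difference (-0.24) at a score of 1. The ratios of Tgfb1 stayed between -0.20 and 0.06 and those of Itgb1 between -0.13 and 0.10 in these ranges.

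**Figure D3:**
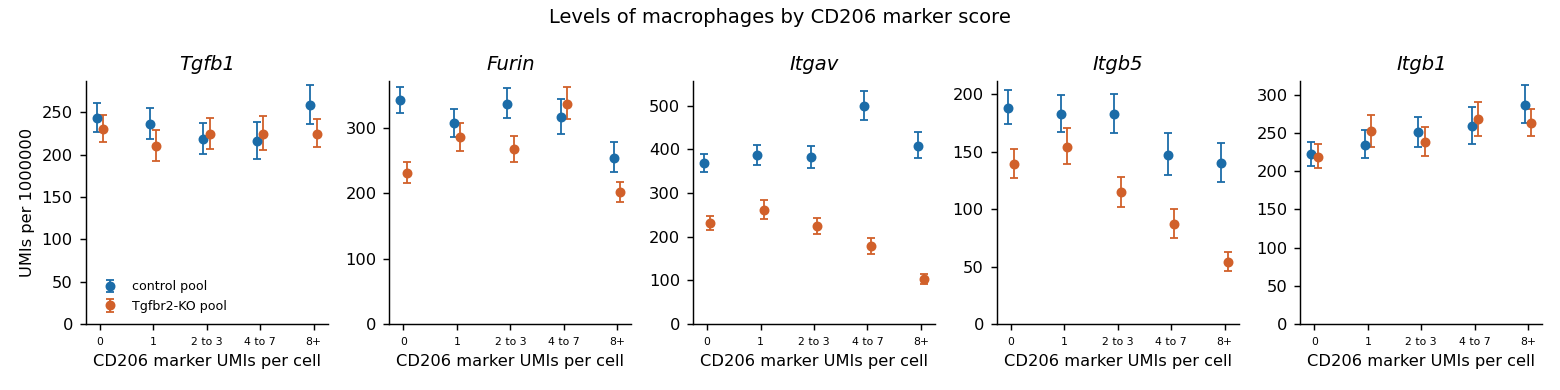
Levels as UMIs per 1000000 gene UMIs (vertical axes, each from 0) in macrophages ordered by the UMIs of 6 CD206+ marker genes per cell at 3000 UMIs (horizontal axis), in the control pool (blue) and the Tgfbr2-KO pool (orange), with exact 95% intervals. Itgav read 368 and 230.4 UPM at a score of 0 and 408 and 103 at 8 and above, and the Tgfb1 and Itgb1 points of the pools lay close together.

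Neither macrophage state held the same mix of clusters in both pools. Clustering of all cells gave 13 clusters, and 2 of them had more CD206+ than other markers. Cluster 1, led by Cd209f, Cd209g, Mmp9 and Folr2, held 20.7% of the gated CD206+ cells of the control pool and 67.1% of those of the Tgfbr2-KO pool. Cluster 5, led by Lepr, Kazn, Bmp2 and Stab1, held 46.9% and 10.1%. Itgav was low in cluster 1 in both pools and high in cluster 5 in both. Gated CD206+ cells of cluster 1 read 157 UPM in the control pool (86 cells) and 64.5 in the Tgfbr2-KO pool (385 cells), 0.410 times the control level (0.328 to 0.516). Those of cluster 5 read 632 (195 cells) and 454 UPM (58 cells), 0.719 times (0.618 to 0.832). Weighting both pools to the control mix of clusters took the log2 ratio of Itgav in CD206+ cells from -1.76 to -0.56, and that of Itgb5 from -1.09 to -0.38. In the CD206-low state, the 5 clusters with at least 20 such cells in each pool held 92.4% of the control and 67.2% of the Tgfbr2-KO cells, and the remaining Tgfbr2-KO cells lay in clusters with few control cells of that state. In 3 of these 5 clusters the ratio of Itgav was between 0.567 and 0.739. In cluster 4 Itgav was higher in the Tgfbr2-KO pool, at 217 and 292 UPM (1.35 times, 1.15 to 1.57), and in cluster 5 it read 589 and 646 UPM (1.10 times, 0.902 to 1.33). Weighting by cluster took the log2 ratio of Itgav in CD206-low cells from -0.67 to -0.15. Over all cells the weighted ratios were -0.46 for Itgav, -0.48 for Itgb5 and -0.04 for Furin, and none of the 6 counted genes reached 1.5-fold. The clusters were made from expression of the same cells, and Itgav is among the 10 leading genes of cluster 3, so a weighting by cluster also takes out differences that set the clusters apart. How much of the pool difference lies in which cells are present and how much in their level cannot be told apart with 1 pool per genotype.

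Within clusters, Itgb5 and Itgav kept their direction in most. Itgb5 was lower in the Tgfbr2-KO pool in 8 of 8 clusters with at least 30 cells per pool and 100 UMIs, with an interval below 1 in 6. Itgav was lower in 8 of 10, with an interval below 1 in all 8, and higher in cluster 4 (221 and 265 UPM, ratio 1.19, 1.04 to 1.37) and cluster 9 (77.5 and 86.0, ratio 1.11, 0.709 to 1.81). Furin was lower in 4 of 9 clusters and higher in 5, with the lowest ratio in cluster 7 (614 and 364 UPM), which is led by Cd209a and Ear2. The Furin interval lay below 1 in 3 clusters and above 1 in 2. Tgfb1 was lower in 5 of 10 clusters, with an interval below 1 in 4 and above 1 in 0. Itgb1 was lower in 4 of 10, with an interval below 1 in 1 and above 1 in 2. Cluster 6, led by Fn1 and Gpnmb, read 364 and 251 UPM of Tgfb1 in 256 and 102 cells. Its leading genes include the markers of the Fn1-high gate, so its value is not independent of that of the Fn1-high state.

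**Figure D4:**
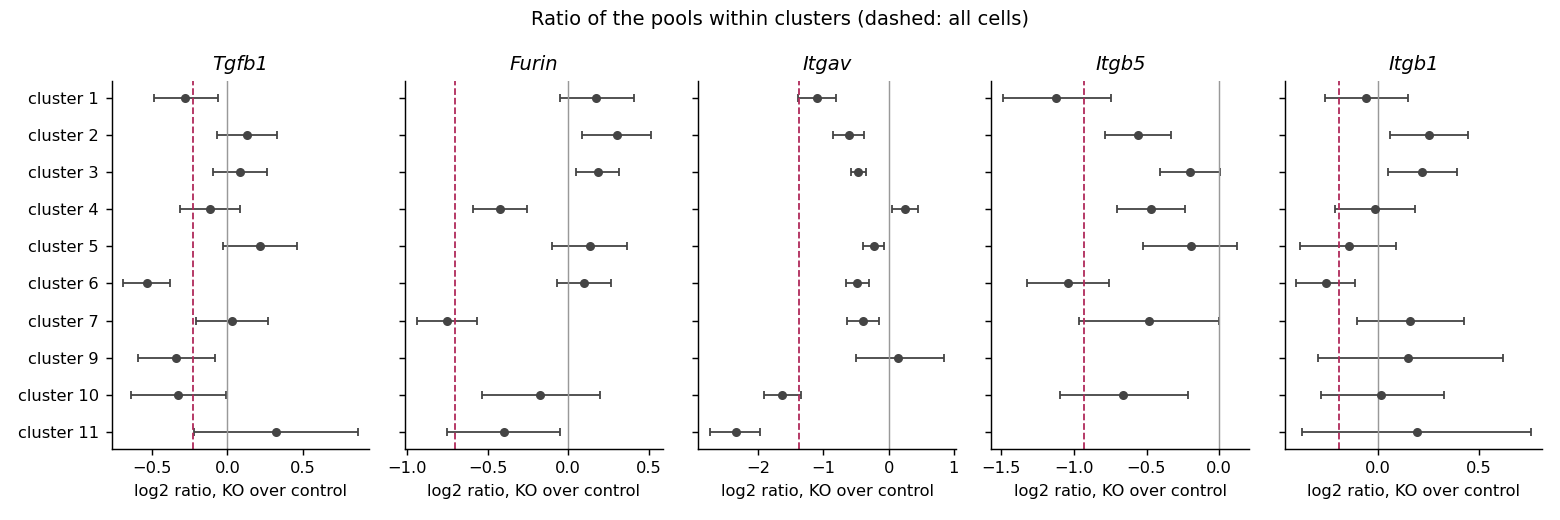
Log2 ratio of the Tgfbr2-KO pool over the control pool (horizontal axes) within each cluster with at least 30 cells per pool (vertical), for genes with at least 100 UMIs there; bars are exact 95% intervals, the grey line is no difference and the dashed line the ratio over all cells. Most Itgav and Itgb5 points lie between 0 and the dashed line, and Furin points lie on both sides of 0.

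Other genes of TGF-beta storage and release differed in both directions. Of a list of 29, 19 had at least 100 UMIs, with 4 at least 1.5-fold higher (Tgfb3, Thbs1, Mmp2 and Emilin1) and 4 at least 1.5-fold lower (among them Plat, Fn1 and Cd36), beside 11.9% and 7.53% of all counted genes. Their median log2 ratio was 0.21, against 0.09 for all genes. Nrros, whose product holds latent TGF-beta on macrophages and microglia, read 246 and 284 UPM, against 8.41 and 5.50 UPM for the most abundant LTBP gene, Ltbp3. Nrros was 1.28-fold higher (1.20 to 1.36) in CD206-low and 1.38-fold higher (1.30 to 1.48) in CD206+ cells of the Tgfbr2-KO pool. Lrrc32, the anchor of regulatory T cells and platelets, read only 3.07 and 4.49 UPM. Platelet markers other than Pf4, which macrophages also express, summed to 3.50 and 3.87 UPM over 5 genes, with Gp1bb at 0.

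Of the other ligands, Tgfb3 read 6.81 UPM (111 UMIs) and 15.8 UPM (486 UMIs), 2.32-fold higher (1.89 to 2.88) in the Tgfbr2-KO pool. It was 2.26-fold higher in CD206-low and 2.39-fold higher in CD206+ cells, the latter from 19 and 69 UMIs. Tgfb2 had 26 and 7 UMIs. Thbs1, which encodes thrombospondin-1, a matrix protein that can free TGF-beta from its propeptide, read 76.7 and 207 UPM, 2.70-fold higher (2.54 to 2.87), and 2.34-fold and 2.71-fold higher in CD206-low and CD206+ cells. In classical monocytes it went the other way, at 1159 and 776 UPM, 1.49-fold lower (1.33 to 1.67), and this state, with far more Thbs1 than either macrophage state, held 33 control and 245 Tgfbr2-KO cells. Emilin1, which encodes a matrix protein that limits processing of the TGF-beta precursor, read 6.07 and 9.34 UPM.

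The proteases did not share a direction. Mmp14, a membrane protease that acts with integrin beta 8, read 53.0 and 79.3 UPM over all cells (a log2 ratio of 0.58, just under 1.5-fold), yet in CD206+ cells it was 2.14-fold lower. Mmp2 read 1.78 and 2.96 UPM. Plat, the tissue plasminogen activator, read 5.83 and 2.60 UPM. Cd36, a thrombospondin receptor, read 396 and 245 UPM. Fn1, fibronectin, to which LTBP proteins attach, read 534 and 81.9 UPM, and it was also a marker of the Fn1-high gate, whose share was 8.28% and 2.06% of cells. Ltbp2, Itgb3 and Itgb6 had 7 and 14, 13 and 21, and 1 and 2 UMIs.

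Among integrin chains outside the 9 genes, 6 of 11 had at least 100 UMIs, of which 2 were at least 1.5-fold lower (Itga5 and Itga6) and 2 at least 1.5-fold higher (Itga8 and Itgb7), beside 7.53% and 11.9% of all counted genes. Itga5, which with beta 1 forms the fibronectin receptor, read 219 and 94.5 UPM, 2.32-fold lower (2.21 to 2.44). It was 1.68-fold lower in CD206-low and 1.99-fold lower in CD206+ cells. Itga6, a laminin receptor chain, read 34.7 and 16.9 UPM. Itga8, which also pairs with beta 1, read 5.40 and 10.2 UPM, and Itgb7 16.9 and 35.5 UPM. The pool difference in alpha chains that share beta 1 was therefore not of 1 sign, while beta 1 itself differed by 1.15-fold.

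Profiles over 11 combinations of state and pool with at least 50 cells were compared with those of 5185 genes of at least 1000 UMIs, by Pearson correlation of log2(UPM + 10). The 3 genes most like Itgav were 2510009E07Rik (r = 0.973), Aopep (0.950) and Dtx4 (0.942), and those most like Itgb5 were Olfml3 (0.987), Itga6 (0.955) and Pxdc1 (0.945). For Furin they were Pigp, Man2a2 and Dusp1 (0.969 to 0.960), for Tgfb1 Spen, Xbp1 and Sos2 (0.913 to 0.851), and for Itgb1 Sept8, Csrnp1 and Kif13b (0.972 to 0.967). Between the 9 genes, Itgav correlated with Furin at 0.759, with Itgb5 at 0.702, with Itgb1 at 0.626 and with Tgfb1 at 0.232. The 11 points share 1 library and differ in depth, so these correlations only describe the profiles.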

How the data were processed

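Per the submitters' processing notes, reads were processed with Cell Ranger 8.0 against GRCm38, and Seurat 5.1.0 is also named. The annotation, and whether intronic reads or strand were used, are not given in the sources used here. The deposited matrix holds the authors' UMI counts per gene and barcode, as raw values for all barcodes. The deposited hashtag table lists, per the file headers, the posterior probability of each assignment as a fraction. Its deposited hashtag count columns are log10 values, which equalled log10 of the matrix count plus 1 within 8.9e-16.

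Cells with an assignment to either hashtag were kept from 1000 UMIs, 500 genes and at most 10% mitochondrial UMIs, which left 4570 of 4671. The 96 hashtag multiplets were left out, and doublets within a pool cannot be seen. UMIs were summed per pool and state and divided by the total (16298452 control and 30729204 Tgfbr2-KO gene UMIs over all cells). Genes were counted with at least 100 UMIs over both pools and called at 1.5-fold, in states with at least 100 cells in both pools. Exact 95% intervals were used (Poisson for levels, conditional binomial for ratios, Clopper-Pearson for shares), and a count of 0 was given a floor of 3 counts. UMIs and cells are treated as independent, so the intervals cover counting error only. States were gated on fixed numbers of marker UMIs in cells thinned at random to 3000 UMIs, and 163 cells were too shallow. Clusters came from 2000 variable genes, 30 principal components, 15 neighbours and the Leiden algorithm at resolution 0.8 (scanpy 1.11.5), and were used for alternatives and for values within clusters. Ratio and thinning functions were tested on simulated data. Python 3.11.15 with numpy 2.4.6, scipy 1.17.1 and pandas 2.3.3 was used. Gene coordinates and promoters are RefSeq's on GRCm38.p6.

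The 9 genes and the lists were chosen with earlier results of these data known. Named genes outside the 9 were Nrros, Lrrc32, Tgfb2, Tgfb3, Ltbp2, Itgb3, Itgb6, Thbs1 and Mmp14, every other list gene past 1.5-fold over all cells (1 is not reported here), the 3 genes most alike in profile, and the modified loci. Alternatives tried were other cell filters, assignment at a probability of 0.99, other scalings, thinning, means over cells, subtraction of free RNA, other gates and clusters, weightings to the control mix of states, clusters or depths, and other thresholds.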

Additional observations from a re-analysis of the deposited data

Results flagged for a closer look

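For 3 genes of the storage and activation list, the pool difference had opposite directions in the CD206-low and CD206+ states, with intervals that exclude no difference in both. The difference between the states was not tested, since there is 1 pool per genotype. Ctsd, the protease cathepsin D, had a log2 ratio of -0.28 in CD206-low cells (505 and 417 UPM) and 0.19 in CD206+ cells (519.8 and 591 UPM). Tgm2, a transglutaminase that can cross-link latent TGF-beta to matrix, had 0.13 in CD206-low cells (159 and 174 UPM) and -0.89 in CD206+ cells (98.0 and 53.0 UPM). Fn1 had 0.61 in CD206-low cells (17.7 and 27.1 UPM) and -0.54 in CD206+ cells (29.2 and 20.2 UPM). Fn1 is also a marker of the Fn1-high gate, which removes cells with high Fn1 from both states. Neither state held the same mix of clusters in the 2 pools, and the part of that in these values was not tested.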

How the results depend on the processing

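Of the 6 genes with at least 100 UMIs, 4 were at least 1.5-fold lower over all cells, beside 7.53% of all genes. This count was 2 of 5 after thinning to 3000 UMIs (5.08% of all genes under the same setting), 2 without interferon-activated cells (4.93%), 2 when both pools were weighted to the control mix of states (4.11%), 1 at a 2-fold threshold (2.50%) and 0 when weighted to the control mix of clusters (3.09%). With no filter on genes it was 5 of 9, Ltbp4 included, beside 16.8% of all genes. Weighted to the control mix of clusters, the count was also 0 in the CD206-low state (1.54%) and 0 in the CD206+ state (4.13%). The weightings by cluster and by depth, another thinning draw and the removal of cells under 3000 UMIs were chosen after seeing the data. Over all cells the Itgav log2 ratio ranged from -1.45 to -0.46 over 13 alternatives, Itgb5 from -0.997 to -0.48 and Furin from -0.77 to -0.04. Furin came near no difference in CD206-low cells weighted by cluster (0.0002) and in CD206+ cells taken as clusters (0.0166). Whether Furin read lower within macrophages thus depended on the grouping. The ratios of Tgfb1 (-0.165 to 0.0036 in CD206-low and -0.184 to 0.0234 in CD206+ cells) and Itgb1 (-0.0944 to 0.131 and -0.156 to 0.0089) also crossed 0 over the alternatives. Other scalings moved the median of all genes by at most 0.09 on the log2 scale. No paired analysis was possible because each genotype is a single pool, and for the same reason no replicate could be left out. Depth limits Ltbp1, Ltbp4 and Itgb8, which had at most 71 UMIs over both pools.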
